A study of Mus musculus with 4 samples.

Results

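The nuclear pore and nuclear transport genes described here are the 57 genes, of 22396 named in the deposited ribosome profiling table, whose symbols name a nucleoporin, an importin, an exportin or a core factor of the Ran cycle. They were chosen by symbol, with earlier results of these data known, and all 57 were tested by the authors. By textbook role, 27 encode parts of the pore, 17 are import factors, 9 are export factors and 4 run the Ran cycle. The study profiled ribosome-protected fragments from THY1-positive mouse testis cells, about 1000 cells per sample. There were 2 samples from control mice and 2 from mice with a knockout of Ddx20, a DEAD-box RNA helicase also known as Gemin3, and the controls were littermates. The allele and any Cre driver, the strain, the age and whether animals were pooled are not stated in the sources used here.

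The nuclear pore complex is a ring-shaped assembly in the nuclear envelope, built from scaffold rings, a membrane anchor, cytoplasmic filaments, a nuclear basket and a channel lined with phenylalanine-glycine (FG) repeats. Importins and exportins carry proteins and RNA through the channel, and the direction of transport comes from Ran, which is bound to GTP in the nucleus and to GDP in the cytoplasm. Most mRNA leaves by another route, with the receptor Nxf1 and its partner Nxt1. In mouse spermatogenesis the importin alpha proteins are known to change from stage to stage.

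The table gives 1 mean and 1 fold change per gene and no column per sample. Each mean is a weighted sum of whole reads with 1 weight per library, and solving it for whole numbers gave the reads of 4 libraries, called A, B, C and D here. A and B lie on one side of the authors' comparison and C and D on the other. Neither side could be tied to a genotype, so "rose" and "fell" below mean higher and lower in C and D, and all directions would swap if C and D were taken as the baseline. Libraries A and B held 941014 and 789570 reads, and libraries C and D held 282722 and 221439. Over 10424 genes A and B differed by less than the sampling noise (a chi-square test gave 0.982 per degree of freedom and p = 0.905). They may be 1 library and were also counted as 1 sample. C and D differed by slightly more than sampling noise (chi-square 1.08 per degree of freedom over 12228 genes, p = 3.79e-10). Nothing states that samples came from separate animals, so p-values measure only the spread between these libraries, which may be technical. Ddx20 had 287, 244, 32 and 30 reads in A to D, with a log2 fold change of -1.83 (SE 0.243) in the authors' deposited table. With no library tied to a label, this value does not check the labels.

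Several measures of the libraries moved with the sides. Germ cell markers took 0.523% and 0.538% of the reads in A and B and 0.153% and 0.148% in C and D, and 11 of 11 tested markers fell. Sertoli cell markers took 0.0947% and 0.0951% against 0.0679% and 0.0659%, and 4 of 10 fell and 1 rose. Fibroblast-like markers took 0.146% and 0.144% against 0.285% and 0.292%, and the list went both ways: of 6 markers 2 rose, Col1a1 and Col1a2, and 2 fell, Dcn and Pdgfra. Beside the counts in all these lists, 26.9% of all tested genes rose and 18.8% fell, and both shares varied with the level, as given below. Markers of other cells took larger shares in C and D. Macrophage markers went from 0.0145% and 0.0157% to 0.0357% and 0.0406% (3 of 7 rose, 1 fell), peritubular markers from 0.00797% and 0.00595% to 0.0329% and 0.0348% (3 of 5 rose) and endothelial markers from 0.0128% and 0.0115% to 0.0272% and 0.0275% (2 of 6 rose). T cell markers went from 0.0017% and 0.0019% to 0.012% and 0.0108% (1 of 7 rose) and Leydig cell markers from 0.0051% and 0.00456% to 0.0131% and 0.0158% (0 of 6 rose or fell). Odorant and vomeronasal receptor genes, little used in testis cells, took 0.00457% and 0.00469% of the reads in A and B and 0.806% and 0.899% in C and D. The part of these shifts in the results below was not tested.

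Across the pathway the ribosome-protected reads were lower in C and D. By the authors' comparison, 47 of the 57 genes fell at a Benjamini-Hochberg adjusted p under 0.05, 4 rose and 6 did not pass. Of all 17347 genes tested, 18.8% fell and 26.9% rose. The median log2 fold change was -1.45 over the 57 genes and 0.38 over all tested genes in the authors' deposited table. The share of genes that fell depended on the level. When the tested genes were put in 4 equal bins by their mean, 61.2% of the genes in the highest bin fell and 11.7% rose. Of the 57 genes, 50 lay in that bin, and there 44 fell and 1 rose. Their median was -1.46, against -1.05 for all genes of the bin in the authors' deposited table. Another 5 genes lay in the next bin, where 3 fell and 2 rose, against 13.3% and 28.7% of all its genes. Kpna7 rose in a bin in which 44.6% of genes rose and 0.623% fell, and Nup35, which did not pass, lay in the lowest bin, where 22.5% rose and 0% fell. Reads that fell with fewer cells of a type and reads that fell with less RNA per cell cannot be told apart in these bulk samples, nor can translation and transcript level, since no matched RNA sequencing was used here.

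In reads divided by the authors' size factors (normalised reads), C and D were both below A and B in 50 of the 57 genes. They were both above in the other 7: Nup35, Nup210, Nup210l, Pom121, Kpna7, Ipo13 and Xpo6. Among all tested genes 30.8% lay below and 53.9% above, and in the highest bin 74.5% lay below and 17.4% above. In that bin 47 of the 50 genes lay below and 3 above. With libraries scaled by their total reads in place of the size factors, limma gave a median of -0.85 over the 57 genes, with 39 that fell and 7 that rose at a Benjamini-Hochberg adjusted p under 0.05. The same fit with the authors' size factors gave 50 that fell and 5 that rose. That scaling moved the median of all genes up by 0.62 on the log2 scale.

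**Figure D1:**
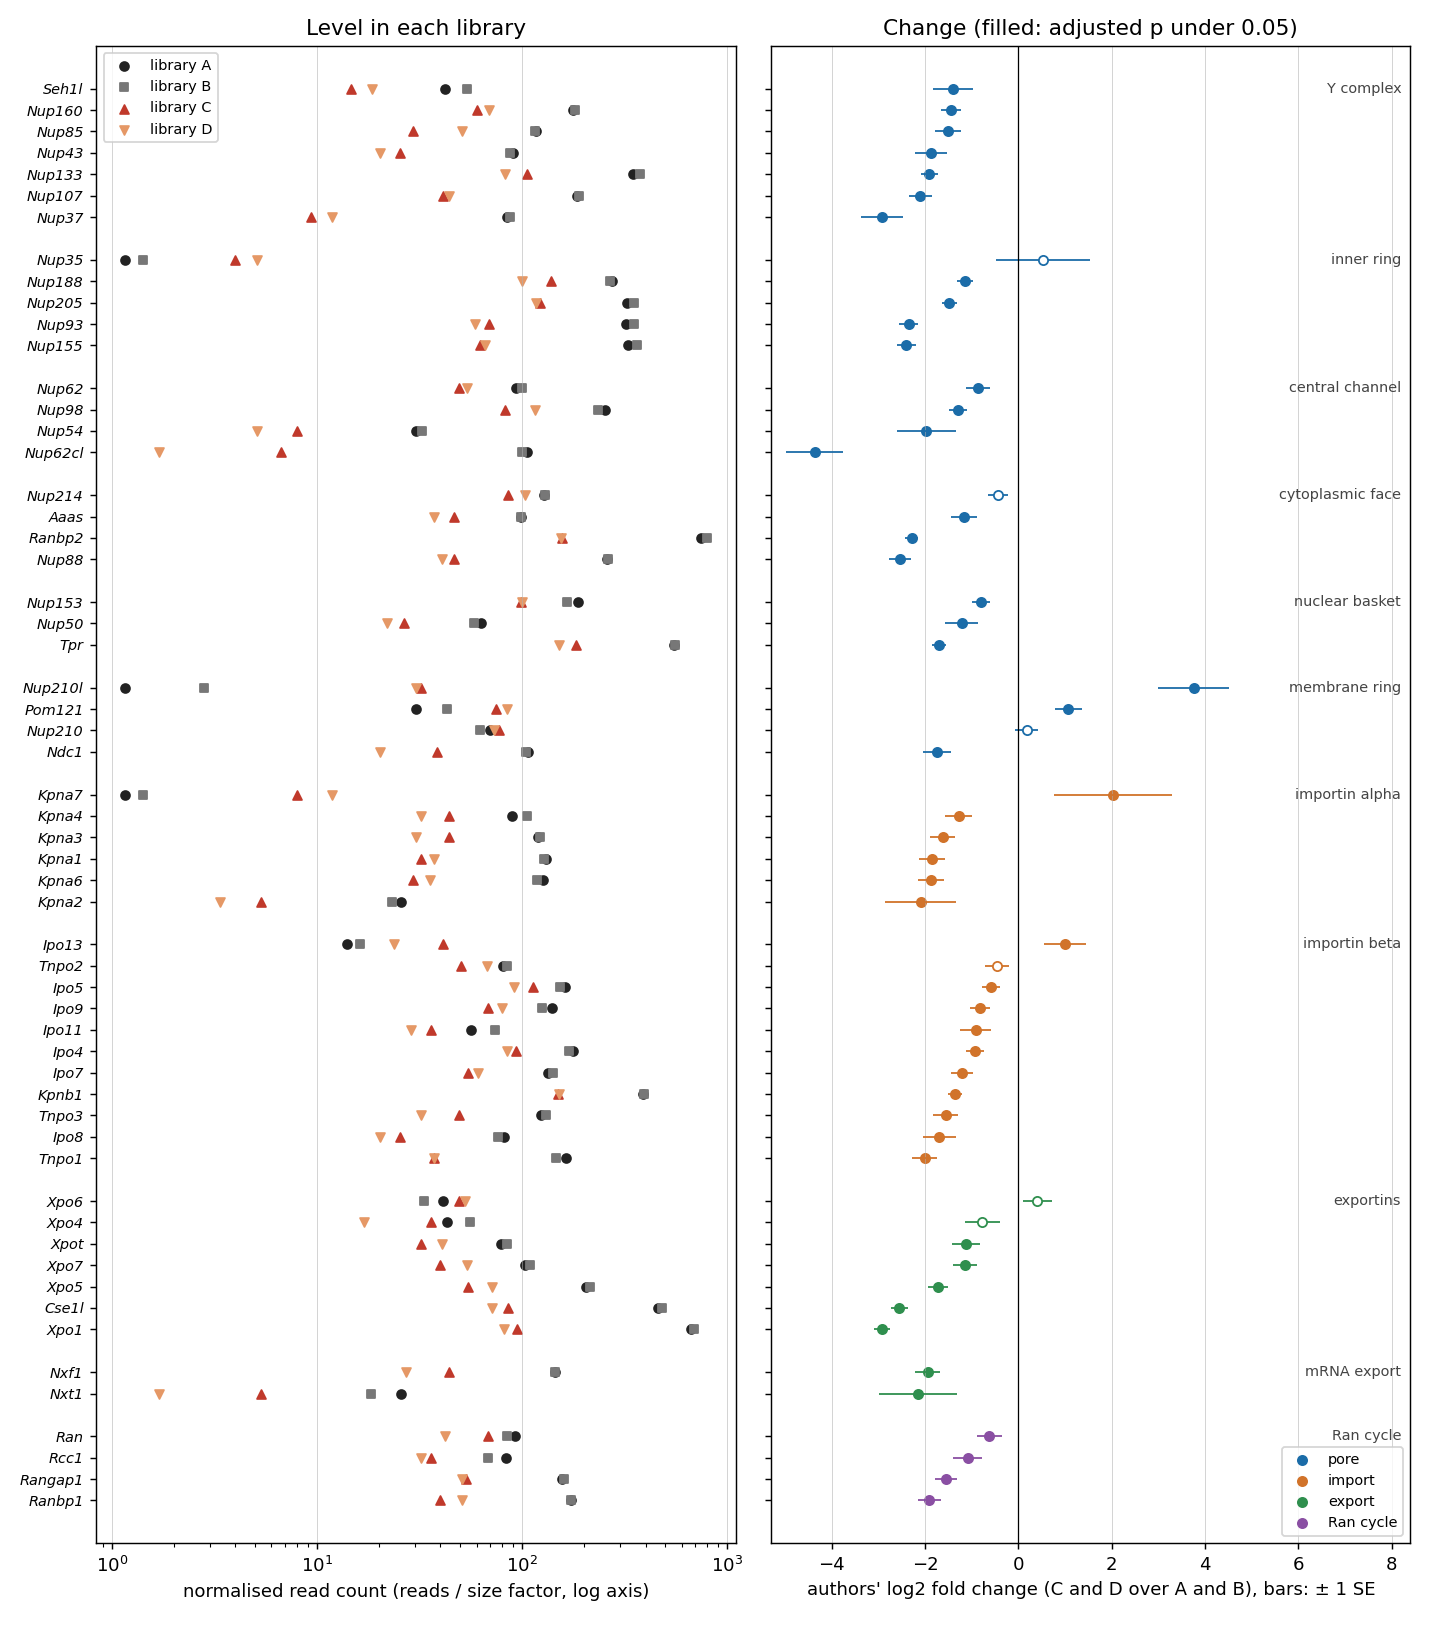
Left, the normalised reads (log axis) of each of the 57 genes in libraries A to D; right, the authors' deposited log2 fold change of C and D over A and B with bars of 1 SE, filled where the Benjamini-Hochberg adjusted p was under 0.05, coloured by role. Points of C and D lie to the left of A and B in 50 genes, and Nup210l, Kpna7, Pom121 and Ipo13 are the filled points to the right of 0.

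**Figure D2:**
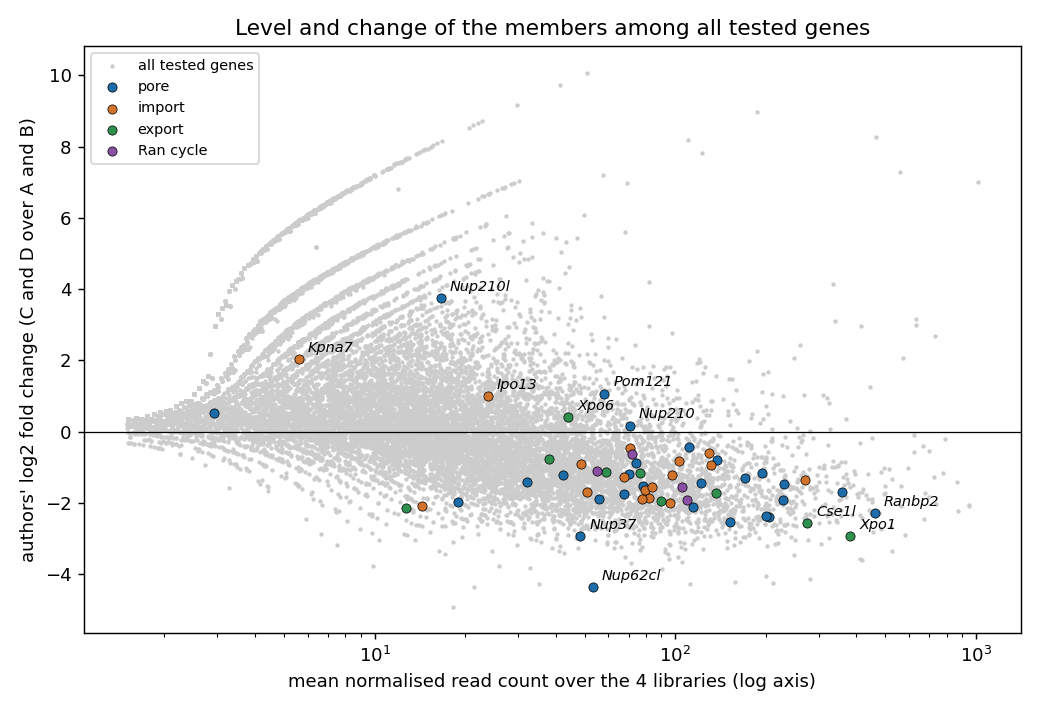
The authors' deposited log2 fold change against the mean normalised read count (log axis) for all tested genes (grey) and the 57 genes (coloured by role). Fold changes of all genes spread below 0 mainly at high means, where 50 of the 57 genes lie.

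Promoter sequences are shown for 8 genes, because most of the genes moved together and because the letters of 3 promoter motifs can be seen in them. RefSeq promoters of build GRCm38.p6, 250 bases before to 50 after the start, matched 46 of the 57 genes. Nup35, Nup43, Nup85, Seh1l, Nup210l, Kpna1, Kpna3, Kpna6, Cse1l, Xpo4 and Xpo7 had no entry. Each line gives the 250 bases before the start, 5′ to 3′ on the gene's strand. Capitals mark CCAAT or its complement ATTGG, the palindromic core of the site of the factor NRF1, and TTTGAA or its complement TTCAAA, known as the cell cycle homology region. Xpo1 lies at chr11:23255791-23256040 (plus strand), Nup88 at chr11:70969974-70970223 (minus), Nup107 at chr10:117792706-117792955 (minus) and Nup62 at chr7:44815838-44816087 (plus). Nup50 lies at chr15:84923178-84923427 (plus), Xpo5 at chr17:46202561-46202810 (plus), Ran at chr5:129019906-129020155 (plus) and Pom121, which rose, at chr5:135394547-135394796 (minus). The Pom121 stretch lies inside the gene span, chr5:135376140-135404841, so it precedes a start within the gene. The Xpo1 and Nup107 stretches reach in part into their gene spans, chr11:23255909-23297597 and chr10:117750621-117792736.
Xpo1: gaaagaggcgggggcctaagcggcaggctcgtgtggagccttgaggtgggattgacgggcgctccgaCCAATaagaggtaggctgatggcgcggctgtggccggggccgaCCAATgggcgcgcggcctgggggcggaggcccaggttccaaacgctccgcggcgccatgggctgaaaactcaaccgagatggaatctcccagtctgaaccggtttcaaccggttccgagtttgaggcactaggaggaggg
Nup88: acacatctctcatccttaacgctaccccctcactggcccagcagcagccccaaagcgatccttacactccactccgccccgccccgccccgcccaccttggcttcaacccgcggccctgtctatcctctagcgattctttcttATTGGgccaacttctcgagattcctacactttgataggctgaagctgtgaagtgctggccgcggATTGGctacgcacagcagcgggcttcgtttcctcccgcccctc
Nup107: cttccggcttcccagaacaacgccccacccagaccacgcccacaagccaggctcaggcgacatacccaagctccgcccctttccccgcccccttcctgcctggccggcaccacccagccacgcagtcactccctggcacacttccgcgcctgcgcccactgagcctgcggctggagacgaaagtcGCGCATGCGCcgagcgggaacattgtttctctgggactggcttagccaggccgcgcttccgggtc
Nup62: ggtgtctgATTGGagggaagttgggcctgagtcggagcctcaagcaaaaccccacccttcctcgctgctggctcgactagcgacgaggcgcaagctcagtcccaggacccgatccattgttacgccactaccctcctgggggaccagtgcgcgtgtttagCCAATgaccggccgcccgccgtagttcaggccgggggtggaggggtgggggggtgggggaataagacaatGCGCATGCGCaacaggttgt
Nup50: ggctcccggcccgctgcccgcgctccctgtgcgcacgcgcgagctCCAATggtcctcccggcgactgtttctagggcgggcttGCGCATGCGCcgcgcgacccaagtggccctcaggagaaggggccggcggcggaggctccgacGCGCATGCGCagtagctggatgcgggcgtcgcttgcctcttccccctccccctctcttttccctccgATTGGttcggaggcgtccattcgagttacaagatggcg
Xpo5: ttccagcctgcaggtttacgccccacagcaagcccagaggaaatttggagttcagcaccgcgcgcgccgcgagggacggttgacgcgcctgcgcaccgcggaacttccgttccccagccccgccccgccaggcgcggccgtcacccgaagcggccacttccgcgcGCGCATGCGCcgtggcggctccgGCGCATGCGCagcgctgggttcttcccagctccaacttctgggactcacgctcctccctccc
Ran: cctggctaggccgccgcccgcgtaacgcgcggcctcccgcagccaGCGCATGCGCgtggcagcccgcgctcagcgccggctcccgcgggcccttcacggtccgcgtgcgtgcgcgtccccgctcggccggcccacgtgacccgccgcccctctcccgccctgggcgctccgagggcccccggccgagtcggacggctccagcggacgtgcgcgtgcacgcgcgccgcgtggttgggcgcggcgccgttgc
Pom121: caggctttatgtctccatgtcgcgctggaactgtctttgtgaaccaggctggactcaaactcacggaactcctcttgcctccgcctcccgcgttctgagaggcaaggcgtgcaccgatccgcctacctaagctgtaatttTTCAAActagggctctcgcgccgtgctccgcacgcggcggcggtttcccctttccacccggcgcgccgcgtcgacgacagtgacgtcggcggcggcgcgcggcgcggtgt

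The NRF1 letters were found in 5 of the 46 genes with a promoter (10.9%), namely Nup107, Nup50, Nup62, Xpo5 and Ran. They were found in 3.13% of the tested genes in the highest bin that had a promoter and in 1.07% of all 27025 genes with a promoter. They began 65 bases before the start in Nup107, 20 before it in Nup62 and 205 before it in Ran, and occurred at more than 1 position in Nup50 and Xpo5. CCAAT or ATTGG was found in 23 of 46 genes, against 43.5% in the highest bin and 41.1% of all. TTTGAA or TTCAAA was found in 13 of 46 (28.3%), against 14.4% and 20.2%. The E2F-type letters TTCGCGC or GCGCGAA were found in 3 of 46 (6.52%), against 4.44% and 1.81%, and TTGGCGC or GCGCCAA in 1 of 46 (2.17%), against 6.46% and 2.85%. A gene was counted if any of its promoter entries held the letters. Searches covered both strands and the whole 300-base window, and ATTGG can share letters with TTGGCGC.

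The symbol rule took in 7 genes of the Y complex, the outer scaffold of the pore, and other subunits were not counted with them. All 7 fell, and the median of their log2 fold changes was -1.88 (the authors' deposited table). Counts by group, here and below, stand beside the highest bin, which holds 50 of the 57 genes. There 61.2% of all genes fell and 11.7% rose. Nup133 had 596, 534, 79 and 49 reads in A to D, or 347, 378, 105 and 82.9 normalised reads. Nup107, its partner in the stem of the Y, had 320, 267, 31 and 26 reads, or 186, 189, 41.3 and 44.0 normalised. In both genes C and D were far below A and B. In the authors' deposited table the log2 fold change was -1.91 (SE 0.179, adjusted p = 4.68e-25) for Nup133 and -2.10 (SE 0.246, adjusted p = 1.48e-16) for Nup107. Nup160 and Nup37 form the long arm. Nup160 had 178, 180, 60.0 and 69.4 normalised reads, and its log2 fold change was -1.45 (SE 0.218, adjusted p = 2.34e-10) in the authors' deposited table. Nup37 had 145, 124, 7 and 7 reads, or 84.4, 87.7, 9.33 and 11.8 normalised. Its log2 fold change of -2.93 (SE 0.451, adjusted p = 4.03e-10) was the lowest of the 7 in the authors' deposited table. Nup43, Nup85 and Seh1l, which lie in the short arm, had values of -1.88, -1.51 and -1.40 in the authors' deposited table. Seh1l, also a subunit of the amino-acid sensing GATOR2 complex, had 72, 76, 11 and 11 reads.

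Of the 5 inner ring genes, which form the scaffold around the channel, 4 fell and 1 did not pass. Nup155 had 562, 516, 47 and 39 reads, or 327, 365, 62.6 and 66.0 normalised, and fell by 2.41 on the log2 scale (SE 0.202, adjusted p = 3.31e-31, the authors' deposited table). Nup93, the linker that holds the inner ring and the channel proteins together, had 554, 495, 52 and 35 reads, or 322, 350, 69.3 and 59.2 normalised. It fell by 2.35 (SE 0.201, adjusted p = 5.02e-30, the authors' deposited table). The large scaffold proteins Nup205 and Nup188 bind Nup93 in place of each other. Nup205 had 326, 353, 123 and 117 normalised reads and Nup188 had 274, 267, 139 and 99.8. Their log2 fold changes in the authors' deposited table were -1.48 (SE 0.167) and -1.14 (SE 0.175), with adjusted p of 1.72e-17 and 6.57e-10. Nup35 had only 2, 2, 3 and 3 reads and did not pass (log2 fold change 0.52, SE 1.01, adjusted p = 0.370, the authors' deposited table). Limma with the same size factors called it as a rise (1.71, adjusted p = 0.0262) on these few reads.

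All 4 genes of the channel group fell. Nup62, an FG protein of the central channel, had 161, 142, 37 and 32 reads, or 93.7, 100.4, 49.3 and 54.1 normalised. Its log2 fold change was -0.87 (SE 0.257, adjusted p = 0.00206) in the authors' deposited table, and it did not pass with limma when libraries were scaled by totals or by upper quartiles. Nup54, its partner, had 52, 46, 6 and 3 reads and a log2 fold change of -1.97 (SE 0.630, adjusted p = 0.00198) in the authors' deposited table. Nup98, an FG protein that also binds the mRNA export factor Rae1, had 253, 233, 82.6 and 115 normalised reads. It fell by 1.29 (SE 0.189, adjusted p = 7.19e-11, the authors' deposited table). Nup62cl, an X-linked gene (chrX:140006802-140062707, GRCm38.p6) named for its likeness to the C-terminal part of Nup62, had 181, 141, 5 and 1 reads, or 105, 99.7, 6.66 and 1.69 normalised. Its log2 fold change of -4.37 (SE 0.615, adjusted p = 1.91e-11) was the lowest of the 57 genes in the authors' deposited table.

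On the cytoplasmic face 3 of 4 genes fell. Ranbp2 (chr10:58446852-58494155), the filament protein that binds Ran and SUMO-modified Rangap1, had 1277, 1123, 118 and 91 reads, or 743, 794, 157 and 154 normalised. It fell by 2.29 on the log2 scale (SE 0.144, adjusted p = 1.12e-54, the authors' deposited table). Nup88 had 448, 371, 35 and 24 reads, or 261, 262, 46.6 and 40.6 normalised, and a log2 fold change of -2.54 (SE 0.233, adjusted p = 3.27e-26) (values of the authors' deposited table). Its binding partner Nup214, a docking site for Xpo1, had 220, 182, 64 and 61 reads, or 128, 129, 85.3 and 103 normalised. C and D were below A and B here too, but by less, and the log2 fold change of -0.44 (SE 0.205, adjusted p = 0.0607, the authors' deposited table) did not pass. Limma on the recovered reads called it as fallen with the same size factors (-0.46, adjusted p = 0.0124), and gave 0.16 (adjusted p = 0.377) with library totals. The difference between Nup88 and Nup214 was not tested. Aaas, the aladin protein anchored by Ndc1, fell by 1.17 (SE 0.274, adjusted p = 6.91e-05, the authors' deposited table).

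All 3 nuclear basket genes fell, with a median of -1.22, against -1.05 for all genes of the highest bin, where 61.2% fell (the authors' deposited table). Tpr, the coiled-coil protein of the basket, had 948, 786, 138 and 89 reads, or 552, 556, 184 and 151 normalised, and fell by 1.70 (SE 0.146, adjusted p = 9.89e-30, the authors' deposited table). Nup153, which anchors Tpr, had 187, 165, 98.6 and 99.8 normalised reads. It fell by 0.81 (SE 0.193, adjusted p = 0.000146, the authors' deposited table), and did not pass with limma on library totals. Nup50, a mobile basket protein that helps release importin alpha cargo, had 109, 82, 20 and 13 reads and fell by 1.22 (SE 0.358, adjusted p = 0.00145, the authors' deposited table).

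The membrane ring was the pore group with rises: of 4 genes 1 fell, 2 rose and 1 did not pass. Nup210l, 1 of the 2 that rose, lay in the bin below the highest, where 28.7% of all genes rose and 13.3% fell. Ndc1, which ties the scaffold to the membrane, had 107, 105, 38.7 and 20.3 normalised reads and fell by 1.74 (SE 0.306, adjusted p = 5.99e-08, the authors' deposited table). Pom121 (chr5:135376140-135404841), a membrane nucleoporin used early in pore assembly, had 52, 61, 56 and 50 reads, or 30.3, 43.1, 74.6 and 84.6 normalised. Its reads were alike in all 4 libraries, and the normalised values of C and D were higher because those libraries hold fewer reads in all. The log2 fold change was 1.07 (SE 0.286, adjusted p = 0.000511) in the authors' deposited table. Nup210, the lumenal ring protein, had 120, 88, 58 and 43 reads, or 69.8, 62.2, 77.3 and 72.8 normalised, and a log2 fold change of 0.17 (SE 0.245, adjusted p = 0.547) (values of the authors' deposited table). With limma on library totals Nup210 passed as a rise (0.81, adjusted p = 0.000300). Its paralogue Nup210l (chr3:90101007-90212151), known in mouse for expression in testis, had 2, 4, 24 and 18 reads, or 1.16, 2.83, 32.0 and 30.5 normalised. Nup210l was near 0 in A and B although those libraries held more reads, and its log2 fold change was 3.76 (SE 0.758, adjusted p = 1.36e-06) in the authors' deposited table.

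Of the 6 importin alpha genes, whose proteins bind nuclear localisation signals, 5 fell and 1 rose. Kpna6 had 218, 167, 22 and 21 reads, or 127, 118, 29.3 and 35.5 normalised, and fell by 1.87 (SE 0.289, adjusted p = 4.92e-10, the authors' deposited table). Kpna1 had 224, 181, 24 and 22 reads, or 130, 128, 32.0 and 37.2 normalised, and fell by 1.86 (SE 0.280, adjusted p = 1.83e-10, the authors' deposited table). Kpna3 and Kpna4, of another subfamily, had 206, 173, 33 and 18 reads and 154, 149, 33 and 19 reads. Their log2 fold changes were -1.63 (SE 0.276) and -1.28 (SE 0.287) in the authors' deposited table, with adjusted p of 1.96e-08 and 3.13e-05. Kpna2 had 44, 33, 4 and 2 reads and a log2 fold change of -2.10 (SE 0.757, adjusted p = 0.00486) in the authors' deposited table. RefSeq lists a pseudogene of Kpna2, so the reads given to it are uncertain, and without library C limma no longer called it (log2 fold change -2.56, adjusted p = 0.0523).

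Kpna7, known in mouse as an importin alpha of the oocyte and early embryo, had 2, 2, 6 and 7 reads, or 1.16, 1.41, 8.0 and 11.8 normalised. Its log2 fold change was 2.03 (SE 1.26, adjusted p = 0.0337) in the authors' deposited table, with an interval of -0.44 to 4.51 from the same SE. The interval spans 0 although the gene passed, and limma with the same size factors gave 2.68. Of all importin alpha reads, 848, 705, 122 and 89 in A to D, Kpna7 took 0.236%, 0.284%, 4.92% and 7.87%. The 95% Wilson intervals, which cover counting error only, reached 0.856% and 1.03% in A and B and began at 2.27% and 3.86% in C and D. The other 5 genes kept shares of the family whose intervals overlapped between the sides, as with Kpna1 at 26.4%, 25.7%, 19.7% and 24.7%. The Kpna7 intervals rest on the same few reads as its call and add no separate support. Kpna7 lay in a bin by mean where 44.6% of all genes rose and 0.623% fell. Whether its share moved apart from genes of like level was not tested.

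The importin beta family carries cargo directly or through importin alpha, and 9 of its 11 genes fell, 1 rose and 1 did not pass. The family median was -0.94, nearer 0 than the -1.05 of all genes in the highest bin (the authors' deposited table). That bin holds 10 of the 11 genes, and 61.2% of all its genes fell. Kpnb1, importin beta itself, had 665, 556, 112 and 89 reads, or 387, 393, 149 and 151 normalised, and fell by 1.36 (SE 0.154, adjusted p = 1.56e-17, the authors' deposited table). Tnpo1, which imports hnRNP proteins with PY-type signals, had 283, 206, 28 and 22 reads, or 165, 146, 37.3 and 37.2 normalised. It fell by 2.01 (SE 0.266, adjusted p = 2.95e-13, the authors' deposited table). Its close paralogue Tnpo2 had 138, 119, 38 and 40 reads, or 80.3, 84.1, 50.6 and 67.7 normalised, with a log2 fold change of -0.46 (SE 0.256, adjusted p = 0.111, the authors' deposited table) that did not pass. Limma called Tnpo2 as fallen with the authors' size factors (-0.50, adjusted p = 0.0261), and gave 0.12 (adjusted p = 0.594) with library totals. The difference between the paralogues was not tested. Tnpo3, the importer of SR splicing factors, had 212, 184, 37 and 19 reads and fell by 1.56 (SE 0.267, adjusted p = 2.72e-08, the authors' deposited table).

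Among the numbered importins, Ipo8 and Ipo7 are paralogues. Ipo8 had 140, 108, 19 and 12 reads and Ipo7 had 229, 200, 41 and 36, and both fell, with log2 fold changes of -1.69 (SE 0.349) and -1.22 (SE 0.235) (the authors' deposited table). Ipo4 and Ipo9, known as importers of histones, and Ipo11 fell, with log2 fold changes of -0.94, -0.82 and -0.92 (the authors' deposited table). None of these 3 passed with limma on library totals. Ipo5, an importer of ribosomal proteins, had 279, 217, 85 and 54 reads, or 162, 153, 113 and 91.4 normalised. Its log2 fold change of -0.60 (SE 0.194, adjusted p = 0.00617) in the authors' deposited table was the smallest fall that passed in the import group, and it was 0.01 with limma on library totals. Ipo13, which carries cargo in both directions, had 24, 23, 31 and 14 reads, or 14.0, 16.3, 41.3 and 23.7 normalised. Library C stood well above D, and both stood above A and B. The log2 fold change was 0.99 (SE 0.452, adjusted p = 0.0358, the authors' deposited table). Without library C limma gave 0.69 and no longer called Ipo13, with only D left on that side.

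Of the 7 exportins 5 fell, and Xpo1 had the smallest p of the 57 genes. Xpo1 (chr11:23255909-23297597), also called CRM1, exports proteins with leucine-rich signals, ribosomal subunits and snRNA precursors. It had 1146, 973, 71 and 48 reads, or 667, 688, 94.6 and 81.2 normalised, so the level in C and D was 13.0% of that in A and B. The log2 fold change was -2.92 (SE 0.170, adjusted p = 1.03e-63) in the authors' deposited table. Cse1l (chr2:166906041-166946389), the exportin that returns importin alpha to the cytoplasm, had 791, 683, 64 and 42 reads, or 460, 483, 85.3 and 71.1 normalised. It fell by 2.56 (SE 0.182, adjusted p = 5.51e-43, the authors' deposited table). In both genes C and D lay close together and far below A and B.

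The exportins of small RNAs fell too. Xpo5, which exports microRNA precursors, had 353, 303, 41 and 42 reads, or 205, 214, 54.6 and 71.1 normalised, and fell by 1.72 (SE 0.216, adjusted p = 1.61e-14, the authors' deposited table). Xpot, the tRNA exportin, had 135, 120, 24 and 24 reads and fell by 1.12 (SE 0.300, adjusted p = 0.000518, the authors' deposited table). Xpo7, an exportin of broad cargo, had 177, 155, 30 and 32 reads and fell by 1.14 (SE 0.264, adjusted p = 5.65e-05, the authors' deposited table). Differences among the exportins were not tested. Xpo4, known as an exporter of eIF5A, had 43.1, 55.9, 36.0 and 16.9 normalised reads and did not pass (log2 fold change -0.78, SE 0.372, adjusted p = 0.0545, the authors' deposited table). Limma with the same size factors called Xpo4 as fallen (-0.88, adjusted p = 0.00647), and with library totals did not (-0.26, adjusted p = 0.446). Xpo6, the exporter of actin with profilin, had 41.3, 33.2, 49.3 and 52.5 normalised reads and did not pass either (0.40, SE 0.311, adjusted p = 0.244, the authors' deposited table). With limma on library totals it passed as a rise (1.07, adjusted p = 0.000136).

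Both parts of the mRNA export receptor fell. Nxf1 had 248, 205, 33 and 16 reads, or 144, 145, 44.0 and 27.1 normalised, and fell by 1.95 (SE 0.272, adjusted p = 6.37e-12, the authors' deposited table). Nxt1 had 44, 26, 4 and 1 reads and fell by 2.15 (SE 0.832, adjusted p = 0.00742, the authors' deposited table), although limma without library C gave an adjusted p of 0.0606 at a log2 fold change of -3.14.

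All 4 Ran cycle genes fell, with a median of -1.33, against -1.05 for all genes of the highest bin, where 61.2% fell (the authors' deposited table). Ranbp1, which helps release Ran from transport complexes, had 298, 246, 30 and 30 reads, or 173, 174, 40.0 and 50.8 normalised, and fell by 1.91 (SE 0.245, adjusted p = 5.44e-14, the authors' deposited table). Rangap1, the GTPase-activating protein of Ran in the cytoplasm, had 268, 227, 40 and 30 reads and fell by 1.56 (SE 0.236, adjusted p = 2.76e-10, the authors' deposited table). Rcc1, the chromatin-bound exchange factor that loads Ran with GTP, had 144, 97, 27 and 19 reads and fell by 1.09 (SE 0.310, adjusted p = 0.00112, the authors' deposited table). With limma on library totals Rcc1 did not pass (-0.51, adjusted p = 0.0598). Ran itself had 159, 119, 51 and 25 reads, or 92.5, 84.1, 68.0 and 42.3 normalised, with C nearer to B than to D. Its log2 fold change of -0.62 (SE 0.261) passed narrowly in the authors' deposited table, with an adjusted p of 0.0336. Limma no longer called it without library A (adjusted p = 0.0567) or without library D (0.0964), nor with libraries scaled by totals or by upper quartiles. The table also holds Rasl2-9, a near-identical copy of Ran with 2, 4, 3 and 9 reads, so the split of reads between them is uncertain.

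Set side by side, the 4 roles had median log2 fold changes of -1.48 for the pore, -1.28 for import, -1.72 for export and -1.33 for the Ran cycle in the authors' deposited table. The export role joins 7 exportins, with a median of -1.14, and 2 mRNA export receptor genes, with a median of -2.05. The exportins alone thus lay nearer 0 than the pore or import. Within import the median was -1.74 for importin alpha and -0.94 for the importin beta family. Of the 27 pore genes 22 fell and 2 rose, of 17 import genes 14 fell and 2 rose, and of 9 export genes 7 fell and 0 rose. Beside them, 61.2% of all genes in the highest bin fell and 11.7% rose, with a median of -1.05. For each gene, the share of genes in its bin with a lower fold change was taken. The median of these shares was 34.1% for the pore, 42.0% for import, 25.2% for export and 39.6% for the Ran cycle. As a share of all reads, export genes took 0.323% and 0.328% in A and B and 0.117% and 0.111% in C and D. Pore genes took 0.916% and 0.926% against 0.450% and 0.437%, and import genes 0.368% and 0.359% against 0.234% and 0.221%. The share in A and B was 2.84 times that in C and D for export (95% interval 2.61 to 3.10), 2.07 times for the pore (1.98 to 2.17) and 1.60 times for import (1.50 to 1.70). These intervals do not overlap, but they cover counting error only. With 2 libraries a side an exact permutation test, two-sided, cannot give a p below 0.333, and the order of the roles was not tested. The order also turned in some settings: the export median was -1.47 against -1.48 for the pore in limma without the 50 most abundant genes, and -1.43 against -1.48 when Cse1l was counted with import.

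**Figure D3:**
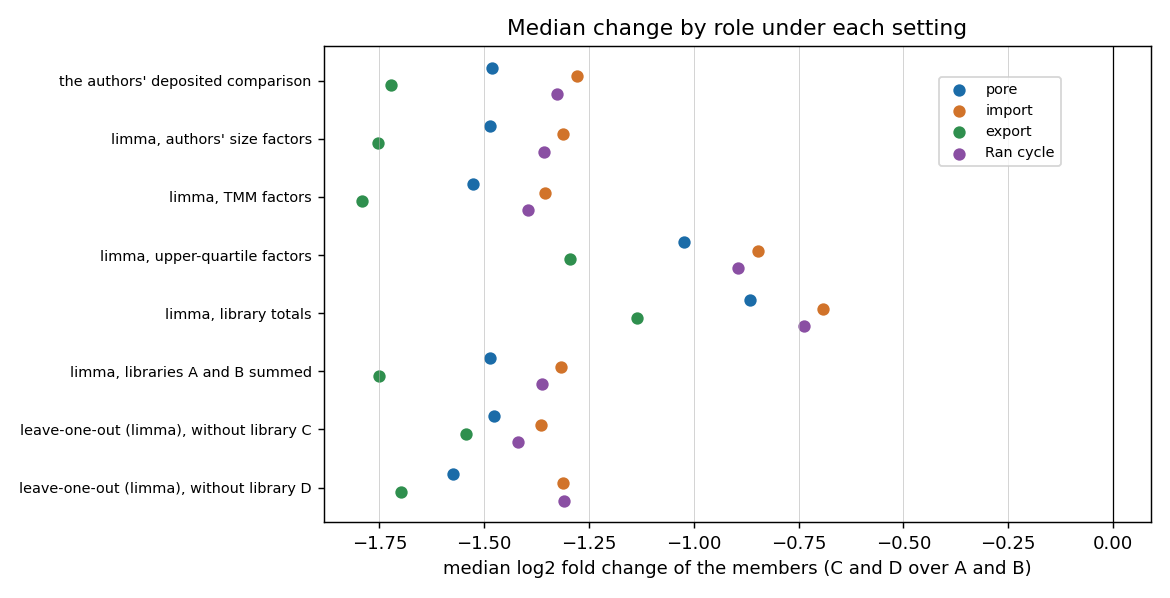
Median log2 fold change (C and D over A and B) of the pore, import, export and Ran cycle genes, 1 point for each role, in the authors' deposited comparison and in 7 settings of limma on the recovered reads. All medians lie below 0, export is lowest in the settings drawn but not in limma without the 50 most abundant genes (-1.47 against -1.48 for the pore, not drawn), and scaling by library totals or upper quartiles moves all 4 roles toward 0.

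The makeup of the members' reads differed between the sides. Export genes held 19.0% and 19.3% of the members' reads in A and B and 13.7% and 13.6% in C and D, while import genes held 21.6% and 21.1% against 27.4% and 27.1%. The pore kept 53.9%, 54.4%, 52.8% and 53.5%. Xpo1 and Cse1l held 63.7% and 63.9% of the export reads in A and B and 40.8% and 36.6% in C and D. Without these genes, export held 7.84%, 7.94%, 8.60% and 9.09%, and the pore held 61.4% and 62.1% in A and B against 55.9% and 56.4% in C and D. The export share of all reads without them in C and D was 0.593 times that in A and B, against 0.352 times with them. That comparison was chosen after the values were seen. Reads are not divided by gene length, so these shares are of reads, not of molecules.

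**Figure D4:**
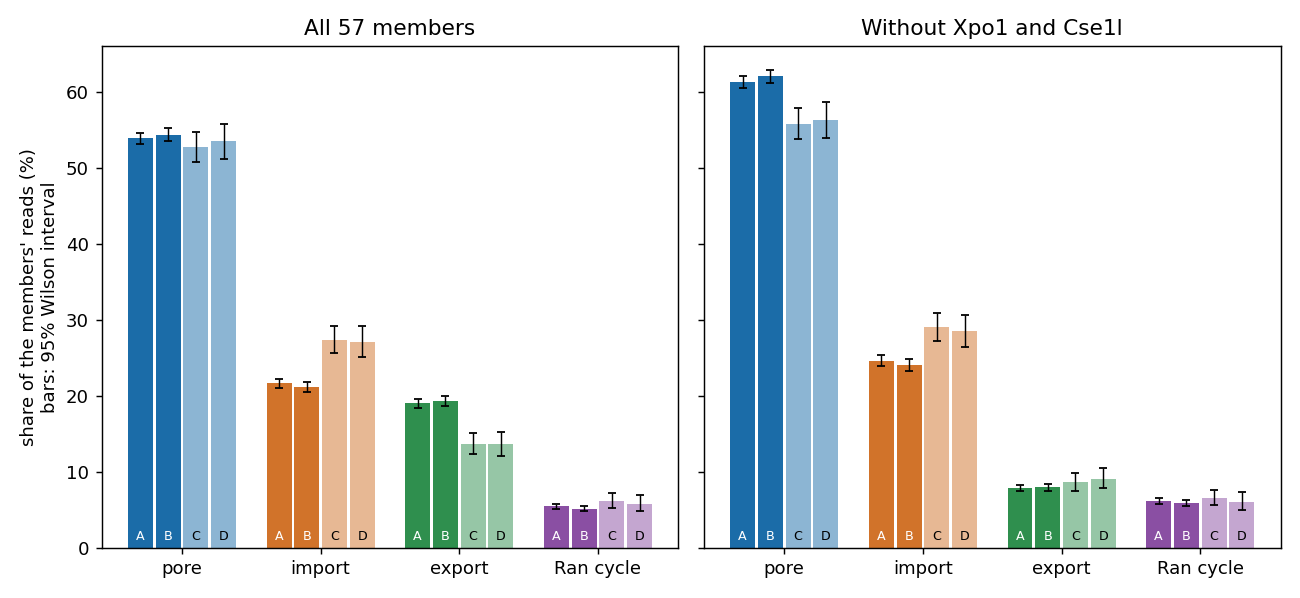
Share of the members' reads (percent) held by pore, import, export and Ran cycle genes in libraries A to D, with all members and without Xpo1 and Cse1l. Export falls from 19.0% and 19.3% to 13.7% and 13.6% with all members, and lies between 7.84% and 9.09% without these genes.

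The change was also set against gene length and level. Over the 57 genes the log2 fold change had a Spearman correlation of 0.09 with the length of the gene span and -0.34 with the mean level, against 0.07 and -0.50 over all tested genes. In the highest bin, which holds 50 of the 57 genes, the correlation with span was 0.27 over all genes of the bin. These are descriptions across genes, which share the same 4 libraries.

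Other genes of the pathway, outside the symbol rule, gave the following counts in the authors' deposited table. They stand beside 18.8% of all tested genes, and 61.2% of those in the highest bin, that fell. The shares that rose were 26.9% and 11.7%. Of 8 tested pore proteins, 4 fell and 1 rose. Rae1, an mRNA export factor that binds Nup98, had 247, 197, 10 and 9 reads and fell by 3.25, and Ahctf1, which seeds pores on chromatin, had 479, 403, 72 and 55 and fell by 1.55 (the authors' deposited table). Of 25 mRNA export genes, 16 fell and 0 rose, and their median was -1.25 (the authors' deposited table). Nxf2, an X-linked paralogue of Nxf1 known from the mouse germ line, had 647, 540, 17 and 13 reads and fell by 4.05 (the authors' deposited table). Ddx39a and Ddx39b, the paralogous helicases that load export factors on mRNA, had log2 fold changes of -2.22 and -1.54 and fell (the authors' deposited table).

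Of 14 further Ran-binding and transport factors that were tested, 8 fell and 0 rose, again beside 18.8% of all tested genes and 61.2% of the highest bin. Nmd3, the adapter that joins large ribosomal subunits to Xpo1, had 288, 254, 21 and 12 reads and fell by 2.77 (the authors' deposited table). Phax and Ncbp1, which join capped snRNA precursors to Xpo1, fell, with log2 fold changes of -2.35 and -1.75 (the authors' deposited table). Of 5 tested genes of the SUMO system, 2 fell and 1 rose. Of 13 lamina and nuclear envelope genes, 6 fell and 3 rose. Rises made up 26.9% of all tested genes and 11.7% of the highest bin. The lamin B receptor Lbr fell by 2.40 (the authors' deposited table). Syne1, a large linker of nucleus and cytoskeleton, had 47, 30, 124 and 105 reads and rose by 2.77 (the authors' deposited table).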

How the data were processed

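Ribosome-protected fragments of 26 to 34 nucleotides were sequenced from 4 samples, per the labels' protocols. The submitters' processing notes name Trimmomatic 0.39, STAR 2.7.5c, StringTie 2.1.7, DESeq2, edgeR and build mm10; the role of each is not stated in the sources used here. Per the file headers, the deposited table gives for each gene a mean signal, a log2 fold change with its standard error, a p-value and an adjusted p-value. The authors' mean signal is over libraries, after division by size factors, as the recovery below bears out. The authors' log2 fold change compares the sides, and its sign convention and any shrinkage are not stated. Among members with few reads it lay nearer 0 than in limma with the same size factors. Nup35 had 0.52 against 1.71, and Kpna7 had 2.03 against 2.68. Fold changes of such genes thus look shrunken toward 0. The authors' p-values were adjusted over 17347 genes, within 6.29e-06 of a Benjamini-Hochberg adjustment. The row with no gene name held 0.00475% of the summed means and was left out.

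Whole reads per library were recovered from the means: 20512 of 20515 rows with reads had 1 solution (99.985%, relative tolerance 8e-15), whereas 200 values shifted by 1e-09 of their size had 0 solutions. On simulated data 6000 of 6000 rows came back exactly. Sides were read from the sign of the fold change of genes whose only read lies in 1 library. A planned count test was not the main result, because the table holds the authors' comparison. Alternatives used limma 3.58.1 (voom) in R 4.3.3 on genes with at least 10 recovered reads. On simulated data it recovered 48% of genes changed 4-fold and 3% of those changed 2-fold, among 13907 genes. That simulation changed 200 genes and set a spread between libraries beyond sampling noise (dispersion 0.05). The recovered pairs differed by 0.982 and 1.08 per degree of freedom, close to sampling noise, so these shares do not give the power of limma here. Python 3.11.15 with scipy 1.17.1 gave the Wilson intervals.

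The members, roles, gene lists and rule for named genes were chosen with earlier results of these data known. Named with values per library were, in each role, the 4 members with the smallest p, the highest mean, every member that rose, up to 3 without a call and the importin alpha family; others are named more briefly. Up to 3 called genes with the smallest p were named in other lists, and the text leaves some out. Gene spans and promoters are from RefSeq GRCm38.p6, the release of the assembly that mm10 names. Protein sequences were not analysed here.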

Additional observations from a re-analysis of the deposited data

How the results depend on the processing

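Of the 57 members, 40 kept their direction and their side of the threshold in all 12 limma settings that could fit them, 37 of them among the 47 that fell. Scaling moved the medians: against the authors' size factors, library totals moved the median of all genes up by 0.62, upper quartiles by 0.46 and TMM by -0.04, and rises made up 74.3%, 70.2% and 57.7% of the calls, against 58.7%. Members that rose numbered 7 with totals, 7 with upper quartiles, 2 with a minimum of 50 reads and 2 at an adjusted p under 0.01. With totals the medians were -0.87 for the pore, -0.69 for import, -1.13 for export and -0.74 for the Ran cycle, of which 2 genes fell. With upper quartiles they were -1.02, -0.85, -1.29 and -0.90. A minimum of 50 reads, which fits fewer genes, gave -1.60 for the pore and -1.34 for import, and it moved the share of rises to 27.8% of calls, against 73.1% with no minimum. TMM gave -1.35 for import. Without the 50 most abundant genes, Xpo1 among them, the export median was -1.47, against -1.48 for the pore, and the export share in C and D was 0.429 times that in A and B. Without Xpo1 and Cse1l, a choice made after seeing the data, it was 0.593 times. Counting Cse1l with import gave an export median of -1.43, also nearer 0 than the pore, and Ranbp2 with the Ran cycle gave -1.56. Leaving out 1 library at a time gave 46 to 48 members that fell and 3 to 4 that rose. By role, 22 to 23 pore genes fell (medians -1.63 to -1.48), 13 to 15 import genes (-1.39 to -1.21), 7 to 8 export genes (-1.78 to -1.54) and 3 to 4 Ran cycle genes (-1.42 to -1.29). A lone library left on a side was assumed to vary like the others. Direction turned for Ipo5 (0.0063), Nup214 (0.16) and Tnpo2 (0.12) with totals and for Nup214 (0.0019) with upper quartiles. The cause of these shifts was not tested. No paired analysis was possible because the libraries recovered from the table carry no replicate number. Low depth in C and D limits genes with few reads, such as Nup35 and Kpna7.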
